A study of Homo sapiens with 6 samples.

Results

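The heat shock chaperones of the cytosol and the mitochondria were examined in PANC-1, a long-established line of human pancreatic ductal adenocarcinoma, after knockdown of the RNA methyltransferase METTL16. The members were taken by gene name: the HSP70, HSP110, HSP90 and small HSP genes, the mitochondrial chaperonin genes, the J proteins of classes A, B and C, BAG1 to BAG6 and the heat shock factors. Of the 58735 genes in the deposited table, 159 matched these names. Removal of 76 pseudogenes and of 6 chaperones of the endoplasmic reticulum (ER) left 77 members. They carried 76 symbols, because HSPA14 stood in the table under 2 identifiers, and they included the readthrough transcripts HSPE1-MOB4 and HSPB2-C11orf52.

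RNA was sequenced from 3 control samples transfected with control siRNA (si-NC, although another label of these samples reads WT) and 3 samples transfected with siRNA against METTL16 (si-METTL16). All 6 came from this 1 line, grown in the same serum-containing medium. The labels speak of siRNA transfection, while the methods call the sequenced cells stably transfected and describe puromycin selection for stable knockdown cells made with short hairpin RNA; whether these samples were selected is not given. The time after transfection and the METTL16 siRNA used for these samples are not given in the sources used here. The methods describe biological triplicates, so the tests measure the spread between cultures of 1 line.

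Heat shock proteins bind unfolded proteins and help them to fold, to assemble or to reach their compartment. HSP70 proteins do this in cycles of ATP hydrolysis that J proteins start, while HSP110 and BAG proteins release the nucleotide, and HSP90 takes over many clients from HSP70. The chaperonin formed by HSPD1 and HSPE1 folds proteins inside mitochondria. Heat shock factor 1 (HSF1) drives the inducible part of the system through the heat shock element, a run of inverted GAA units in the promoter. Tumour cells are known to depend on many of these chaperones.

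Promoter windows of 66 member symbols were found in the RefSeq table (GRCh38.p14, 250 bases before to 50 after each start). A short heat shock element was searched as GAANNTTC or TTCNNGAA, which is 2 inverted GAA units. A long one was searched as 3 inverted GAA units in a row, each 2 bases apart. Each short pattern is its own reverse complement, so the search covered both strands, and every long match contains short ones. The short element was found in 34.8% of these 66 symbols and in 16.2% of all 27305 genes with a window (13.5% of 35116 windows). The long element was found in 7 of the 66 symbols (10.6%) and in 0.608% of all genes (0.490% of windows). The box CCAAT was found in 34.8% of the member symbols and in 39.7% of all genes. The stretches that hold the long element are printed here because these members are described by it later, with the match in capitals; HSPD1 has 2 overlapping matches, and HSP90AB1 and HSPA8 have 2 separate ones each.
HSPD1 (chr2:197500043-197500090, minus strand): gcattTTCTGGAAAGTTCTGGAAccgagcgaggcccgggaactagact
HSP90AB1 (chr6:44247753-44247815, plus strand): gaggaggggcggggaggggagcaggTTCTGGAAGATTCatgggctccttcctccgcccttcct
HSP90AB1 (chr6:44247806-44247868, plus strand): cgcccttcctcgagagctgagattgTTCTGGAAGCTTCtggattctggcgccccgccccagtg
HSP90AA1 (chr14:102087095-102087157, minus strand): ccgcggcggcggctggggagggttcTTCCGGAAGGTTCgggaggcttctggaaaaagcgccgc
HSPA8 (chr11:123062329-123062386, minus strand): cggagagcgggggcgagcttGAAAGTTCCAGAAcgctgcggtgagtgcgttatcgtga
HSPA8 (chr11:123062154-123062216, minus strand): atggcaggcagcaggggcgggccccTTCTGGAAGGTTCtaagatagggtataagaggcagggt
HSPA6 (chr1:161524441-161524503, plus strand): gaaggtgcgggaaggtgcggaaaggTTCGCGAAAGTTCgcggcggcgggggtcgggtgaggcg
DNAJA1 (chr9:33025268-33025296, plus strand): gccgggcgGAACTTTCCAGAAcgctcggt
DNAJB6 (chr7:157336848-157336910, plus strand): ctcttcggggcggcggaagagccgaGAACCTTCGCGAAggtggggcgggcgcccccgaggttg

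The inducible HSP70 genes HSPA1A and HSPA1B are shown next, because they are near copies. Their windows were identical at 277 of 299 aligned bases (92.6%). Most of these bases lie before the start, and the identity of the transcripts, which limits how reads are assigned, was not analysed. Capitals mark the short element in each.
HSPA1A (chr6:31815412-31815469, plus strand): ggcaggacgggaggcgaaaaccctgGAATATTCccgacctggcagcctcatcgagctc
HSPA1B (chr6:31827608-31827665, plus strand): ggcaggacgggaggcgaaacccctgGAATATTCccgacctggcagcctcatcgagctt

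The samples held between 15725298 and 18054436 counts. METTL16 itself was at 91.5, 96.7 and 101 CPM (counts scaled to a common library size, with TMM factors) in the control replicates 1, 2 and 3, and at 34.8, 33.9 and 34.9 CPM in the knockdown replicates, or 35.9% of the control mean. The epithelial markers KRT8 (120 to 177 FPKM), KRT18 (147 to 205 FPKM) and SOX9 (34.8 to 43.4 FPKM) were high in every sample, while KRT7 lay between 0.463 and 1.10 FPKM. KRT19 had 2787 to 3737 counts in si-NC and 886 to 1520 in the si-METTL16 samples, and its part in the results was not tested. Markers of leukocytes, endothelium, islets, acini and liver reached at most 0.0357 FPKM, with CD3E and ALB at 0 counts. In bulk RNA, fewer cells with a transcript and less of it in each cell cannot be told apart.

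The chaperones did not move as 1 block after METTL16 knockdown. Of the 77 members, 65 passed the filter on low counts, 12 of them rose, 8 fell and 45 did not pass the test. The quasi-likelihood test of edgeR was used, with p values adjusted by Benjamini-Hochberg over all 15089 tested genes and a threshold of 0.05, and it is the source of every adjusted p that follows. The 20 called members were 30.8% of those tested, against 35.9% of all tested genes. By direction, 18.5% rose against 18.4% of all tested genes, and 12.3% fell against 17.5%, so these shares were near the background. The si-METTL16 samples all lay above the si-NC samples for 17 members (16 without HSPA6) and all below for 12. Of all tested genes, 25.7% and 25.2% did so. The median log2 fold change of the tested members was 0.05, beside -0.0045 over all tested genes. Without si-NC replicate 1 the members' median was 0.0054, and without si-METTL16 replicate 2 it was 0.084. All tested members but HSPA6 reached the filter's level in every sample; HSPA6 reached it in the si-METTL16 samples only.

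The share of all counts in the 77 members was 1.08%, 1.13% and 1.07% in the control replicates 1, 2 and 3, against 1.17%, 1.30% and 1.30% in the knockdown replicates. The groups did not overlap. HSP90AB1 alone made up 16.5%, 19.2% and 18.0% of the summed CPM of the tested members in si-NC and 20.8%, 21.2% and 21.3% in the si-METTL16 samples. Without it, the sum lay between 8741 and 9106 CPM in si-NC and between 9429 and 10326 CPM in the si-METTL16 samples. Such sums weigh the abundant genes most. Of the 65 tested members, 38 had a log2 fold change above 0 (37 without HSPA6) and 27 below. Of all 15089 tested genes, 7475 were above. The shares and sums were not tested, and no other gene sets were summed beside them.

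**Figure D1:**
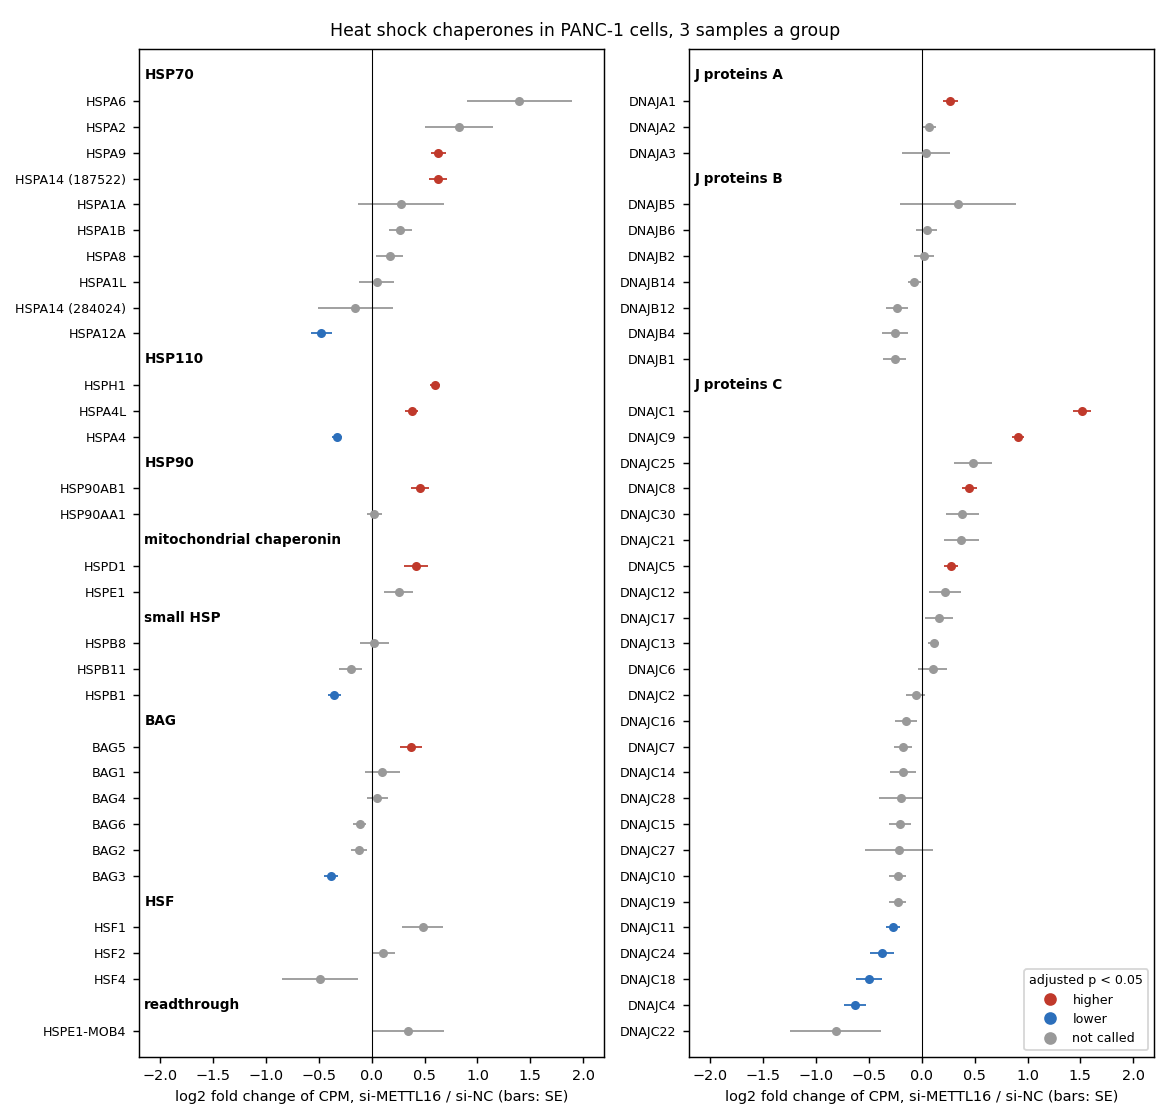
Log2 fold change of each tested member (x axis, si-METTL16 against si-NC, 3 samples a group, bars are standard errors), grouped by role and coloured by the edgeR call. DNAJC1 has the highest called value at 1.51 and DNAJC4 the lowest called value at -0.63, and grey points, which did not pass the test, make up 45 of the 65.

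The HSP110 genes split. These proteins are large relatives of HSP70 that act as its nucleotide exchange factors. HSPH1, the heat-inducible one (chr13:31134974-31162388, minus strand), was at 372, 366 and 375.5 CPM in the si-NC replicates and at 572, 554 and 562 CPM in the si-METTL16 replicates. It rose 1.52-fold (log2 0.60, SE 0.045, edgeR adjusted p = 1.88e-04), and the groups were far apart compared with their spread. HSPA4, the constitutive one (chr5:133051962-133106449, plus strand), was at 715, 711 and 713 CPM in si-NC and at 561, 583 and 559 CPM in the si-METTL16 samples. It fell to 79.6% of the control (log2 -0.33, SE 0.045, edgeR adjusted p = 0.0015), again with no overlap. HSPA4L, a close relative of HSPA4, rose from 57.0 ± 0.909 to 74.1 ± 0.992 CPM (SD, n = 3; log2 0.38, edgeR adjusted p = 0.0032).

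In the deposited FPKM, HSPA4 stayed above HSPH1 in both groups, while in CPM they averaged 568 and 563 in si-METTL16. FPKM also depends on the length assigned to each gene, which was not examined. The transcript numbers of these genes are therefore not ranked. The FPKM ratio of HSPH1 to HSPA4 within a sample was 0.231, 0.228 and 0.233 in si-NC and 0.452, 0.421 and 0.446 in the si-METTL16 samples. Its mean went from 0.231 ± 0.0027 to 0.440 ± 0.017 (SD, n = 3). This pair and the other ratios were chosen after their values were seen, so no test is given for them. An FPKM ratio between genes holds the assigned lengths, so only its change between the groups is read.

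Of the cytosolic HSP90 genes, HSP90AB1 rose and HSP90AA1 did not pass the test. HSP90AB1 encodes the constitutive form and had the highest FPKM of all members (501 ± 51.5 FPKM in si-NC). It was at 1774, 2170 and 1913 CPM in si-NC and at 2479, 2772 and 2792 CPM in the si-METTL16 samples (chr6:44246166-44253888, plus strand). Every si-METTL16 sample lay above every si-NC sample, and the gene rose 1.37-fold (log2 0.46, SE 0.085, edgeR adjusted p = 0.0059). HSP90AA1, the inducible form, was at 941, 981 and 941 CPM in si-NC and at 894, 1059 and 963 CPM in the si-METTL16 samples. These groups overlapped, and the log2 fold change was 0.03 (SE 0.068, edgeR adjusted p = 0.80). The sign of this small value turned to -0.0427 when si-METTL16 replicate 2 was left out. The FPKM ratio of HSP90AB1 to HSP90AA1 was 4.31, 5.05 and 4.65 in si-NC and 6.34, 5.98 and 6.63 in the si-METTL16 samples.

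**Figure D2:**
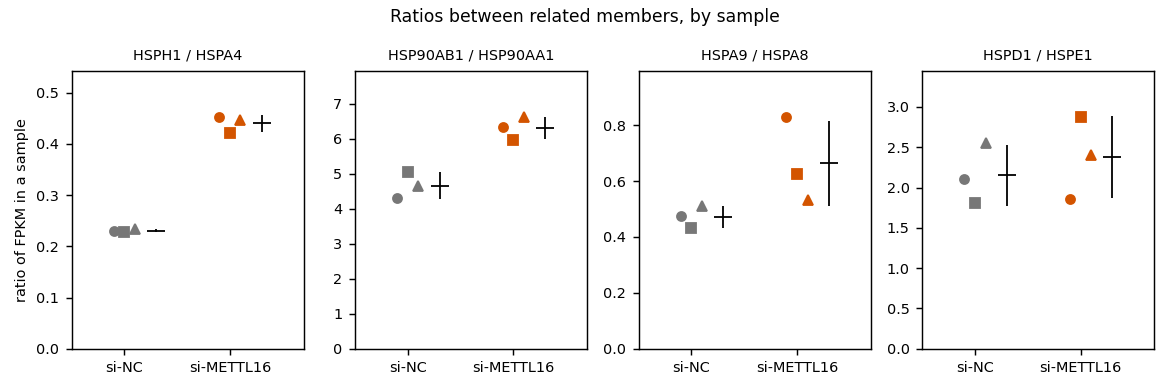
FPKM ratio of related members within each sample (y axis, from 0), with circles, squares and triangles for replicates 1, 2 and 3 and a black bar for mean and SD of 3 samples. The HSPH1 to HSPA4 ratio averages 0.231 in si-NC and 0.440 in the si-METTL16 samples, and the HSPD1 to HSPE1 ratio overlaps between the groups.

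Of the HSP70 genes, 10 were tested, 2 rose and 1 fell (30% called, near the 35.9% of all tested genes). HSPA9 encodes mortalin, the HSP70 of the mitochondrial matrix (chr5:138553756-138575724, minus strand). It was at 607, 563 and 550.5 CPM in si-NC and at 933, 909 and 824 CPM in the si-METTL16 samples. All si-METTL16 values were higher, by 1.55-fold (log2 0.63, SE 0.066, edgeR adjusted p = 5.67e-04). HSPA14, a ribosome-associated HSP70, was at 23.1, 22.6 and 23.4 CPM in si-NC and at 37.7, 35.8 and 33.1 CPM in the si-METTL16 samples for the identifier ENSG00000187522. It rose by a similar 1.54-fold (log2 0.63, edgeR adjusted p = 0.0015). The table's other entry of that symbol, ENSG00000284024, bears the name MSANTD7 in GENCODE v44. It shares 318 exon bases on the same strand with the former, and its log2 fold change was -0.16 (edgeR adjusted p = 0.76).

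HSPA12A, an atypical and distant relative of the family, was the HSP70 gene that fell. It was at 16.3, 17.6 and 17.4 CPM in si-NC and at 12.98, 11.6 and 12.3 CPM in the si-METTL16 samples. The groups did not overlap, and the si-METTL16 mean was 71.8% of the control (log2 -0.48, edgeR adjusted p = 0.0093).

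HSPA8, the constitutive HSC70 of the cytosol, did not pass the test. It was at 1212, 1240 and 1026 CPM in si-NC and at 1068, 1377 and 1468 CPM in the si-METTL16 samples, so the groups overlapped (log2 0.17, SE 0.13, edgeR adjusted p = 0.34). The FPKM ratio of HSPA9 to HSPA8 was 0.475, 0.431 and 0.510 in si-NC and 0.829, 0.627 and 0.533 in the si-METTL16 samples, with the lowest si-METTL16 value close to the highest si-NC value.

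Of the stress-inducible HSP70 genes, HSPA1A varied more between replicates than between groups. It was at 77.1, 84.0 and 40.8 CPM in si-NC and at 54.8, 55.4 and 134 CPM in the si-METTL16 samples. Its highest sample exceeded its lowest 2.06-fold within si-NC and 2.44-fold within si-METTL16, whereas the group means differed 1.21-fold (log2 0.28, SE 0.41, edgeR adjusted p = 0.63). Without si-METTL16 replicate 3 the sign turned, to a log2 fold change of -0.29. HSPA1B, its near copy, was at 80.0, 69.9 and 67.9 CPM in si-NC and at 77.5, 87.9 and 97.4 CPM in the si-METTL16 samples (log2 0.27, SE 0.11, edgeR adjusted p = 0.085), and passed the test without si-METTL16 replicate 1 (log2 0.35, edgeR adjusted p = 0.0443). Because reads can be split between these copies, the counts were also added. The sums were 2655, 2612 and 1906 in si-NC and 2171, 2235 and 4158 in the si-METTL16 samples, with si-METTL16 replicate 3 alone above all others (log2 0.27, edgeR adjusted p = 0.40).

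HSPA6, a strictly inducible HSP70 gene, had 5, 10 and 3 counts in si-NC and 11, 14 and 22 counts in the si-METTL16 samples. The groups did not overlap, but at this depth the log2 fold change of 1.39 had an SE of 0.50 (edgeR adjusted p = 0.065). Its level reached the filter through the si-METTL16 samples alone (3 of 3, against 0 of 3 si-NC samples), so it entered the test only because it was higher there, and no call is read from it, including the edgeR adjusted p of 0.0402 without si-NC replicate 2 (log2 1.96). HSPA2, known from the testis, had a log2 fold change of 0.83 (edgeR adjusted p = 0.086) at 0.261 FPKM, and HSPA1L, encoded beside HSPA1A, one of 0.05 (edgeR adjusted p = 0.84).

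HSPD1 and HSPE1, which encode the HSP60 and HSP10 subunits of the mitochondrial chaperonin, lie head to head on chromosome 2. The long element of the HSPD1 window lies between their RefSeq starts, 294 bases from that of HSPE1 and thus outside the window of HSPE1. In the deposited coordinates HSPE1 (chr2:197499994-197503457) lies within HSPD1 (chr2:197486581-197516737). In GENCODE v44 they share 135 exon bases on opposite strands, 7.41% of those of HSPE1, so reads there may not be told apart. HSPD1 was at 865, 926 and 884 CPM in si-NC and at 974.5, 1342 and 1268 CPM in the si-METTL16 samples, with no overlap (1.34-fold, log2 0.42, SE 0.11, edgeR adjusted p = 0.025). The call was lost without any 1 of si-NC replicate 1, 2 or 3 or si-METTL16 replicate 2 or 3, where the adjusted p lay between 0.0519 and 0.0764 and the log2 fold change between 0.33 and 0.44. HSPE1 was at 210.4, 263 and 177 CPM in si-NC and at 268, 239 and 270 CPM in the si-METTL16 samples. These groups overlapped (log2 0.26, SE 0.14, edgeR adjusted p = 0.19), and without si-NC replicate 2 the gene passed (log2 0.41, edgeR adjusted p = 0.0261). The FPKM ratio of HSPD1 to HSPE1 ranged from 1.81 to 2.56 in si-NC and from 1.86 to 2.88 in the si-METTL16 samples. The readthrough HSPE1-MOB4, which shares exons with HSPE1, had a log2 fold change of 0.35 (edgeR adjusted p = 0.46), and 0.84 without si-NC replicate 2 (edgeR adjusted p = 0.0223).

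Across roles, 10 members act in mitochondria. HSPA9 and HSPD1 rose, while DNAJC4 and DNAJC11 fell. The remaining DNAJA3, DNAJC15, DNAJC19, DNAJC28, DNAJC30 and HSPE1 did not pass the test, with log2 fold changes from -0.23 to 0.38. The share that rose and the share that fell were 20% each, near the 18.4% and 17.5% of all tested genes, and the median over the 10 was -0.08, beside -0.0045.

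Among the small HSP genes, whose products hold unfolded proteins without ATP, 3 of 8 were tested. HSPB1, which encodes HSP27 (chr7:76302544-76304295, plus strand), was at 149, 136 and 139.5 CPM in si-NC and at 112, 110.4 and 111 CPM in the si-METTL16 samples. All si-METTL16 values were lower, at 78.3% of the control mean (log2 -0.35, SE 0.059, edgeR adjusted p = 0.0037). HSPB8, which works with BAG3, had a log2 fold change of 0.02 (edgeR adjusted p = 0.91), and HSPB11, a subunit of the ciliary transport machinery, one of -0.20 (edgeR adjusted p = 0.20). HSPB2, HSPB3, HSPB6, HSPB7 and HSPB9 were too low to test, with at most 18 counts in a sample, and HSPB2, HSPB3 and HSPB9 were at 0 counts throughout.

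The J proteins, which recruit HSP70 to its clients, made up most of the members. Of class A, the broad folding partners, 3 were tested. DNAJA1 was at 655, 611 and 598 CPM in si-NC and at 684, 792 and 770 CPM in the si-METTL16 samples, without overlap (1.21-fold, log2 0.27, SE 0.070, edgeR adjusted p = 0.022). The call was lost without si-NC replicate 2 or 3 or si-METTL16 replicate 2 or 3, with log2 fold changes of 0.22 to 0.25 and adjusted p values of 0.0637 to 0.0765. DNAJA2 of the cytosol and DNAJA3 of the mitochondria had log2 fold changes of 0.07 (edgeR adjusted p = 0.46) and 0.04 (edgeR adjusted p = 0.92).

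Of class B, 7 were tested and none passed, with 0 higher and 0 lower, beside the 35.9% called of all tested genes. DNAJB1, the inducible HSP40, was at 253, 295 and 285 CPM in si-NC and at 206, 220.4 and 270.5 CPM in the si-METTL16 samples (log2 -0.26, SE 0.11, edgeR adjusted p = 0.11). Only si-METTL16 replicate 3 overlapped with the controls, and without it the gene passed (log2 -0.38, edgeR adjusted p = 0.0223). DNAJB4 had a log2 fold change of -0.25 (edgeR adjusted p = 0.15) and passed without si-NC replicate 2 (log2 -0.36, edgeR adjusted p = 0.0488). DNAJB5 was the most uneven of the tested members within si-NC, at 3.43, 12.5 and 4.56 CPM, and at 4.08, 10.8 and 11.02 CPM in the si-METTL16 samples. DNAJB2, DNAJB6, DNAJB12 and DNAJB14 had log2 fold changes from -0.24 to 0.05.

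Class C, whose members share little but the J domain, held the widest range. All 25 were tested, 4 rose and 4 fell (16% each, near the 18.4% and 17.5% of all tested genes). DNAJC1, a J protein of the ER membrane that the name rule keeps, changed most (chr10:21756537-22003769, minus strand). It was at 30.5, 28.5 and 34.5 CPM in si-NC and at 87.0, 90.3 and 89.8 CPM in the si-METTL16 samples. The gene rose 2.86-fold (log2 1.51, SE 0.088, edgeR adjusted p = 1.11e-04), and was the only called member past 1 on the log2 scale. DNAJC10, DNAJB12 and DNAJB14, also listed as ER proteins that the rule keeps, did not pass, with log2 fold changes of -0.23, -0.24 and -0.07. Other members may lie in the ER too, because the list was not meant to be complete.

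DNAJC9, a nuclear J protein that also binds histones, was at 49.3, 51.3 and 51.4 CPM in si-NC and at 95.25, 96.5 and 94.1 CPM in the si-METTL16 samples. It rose 1.88-fold (log2 0.91, SE 0.060, edgeR adjusted p = 1.41e-04). In GENCODE v44, 56.5% of its exon bases also lie in exons of FAM149B1 on the opposite strand, and that gene fell (log2 -0.54, edgeR adjusted p = 0.0071). The strand setting of the counting is not given in the sources used here, so reads of such pairs may not be told apart. DNAJC8, a factor linked to splicing, rose from 170 ± 13.5 to 232 ± 7.06 CPM (SD, n = 3; log2 0.45, edgeR adjusted p = 0.0030). DNAJC5, the vesicle protein CSPα, rose from 131 ± 7.22 to 159 ± 8.40 CPM (log2 0.28, edgeR adjusted p = 0.018). Its call was lost without si-NC replicate 2 (log2 0.23, edgeR adjusted p = 0.0633) or si-METTL16 replicate 1 (log2 0.23, edgeR adjusted p = 0.061).

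The class C genes that fell were DNAJC4, DNAJC18, DNAJC24 and DNAJC11. DNAJC4 (chr11:64230278-64234286, plus strand) was at 15.03, 14.3 and 14.1 CPM in si-NC and at 8.84, 9.49 and 9.74 CPM in the si-METTL16 samples, or 64.6% of the control (log2 -0.63, SE 0.10, edgeR adjusted p = 0.0037). DNAJC18 was at 18.7, 17.0 and 15.6 CPM in si-NC and at 11.5, 13.5 and 11.3 CPM in the si-METTL16 samples (log2 -0.50, SE 0.12, edgeR adjusted p = 0.0185). DNAJC24, a cofactor of diphthamide synthesis, was at 27.8, 30.4 and 28.6 CPM in si-NC and at 25.5, 22.0 and 19.5 CPM in the si-METTL16 samples (log2 -0.38, SE 0.12, edgeR adjusted p = 0.041). None of these genes overlapped between the groups. DNAJC11, a mitochondrial J protein of the MICOS-linked complex, fell from 103 ± 4.09 to 85.4 ± 3.93 CPM (log2 -0.27, edgeR adjusted p = 0.018). It shares 11.6% of its exon bases with THAP3 on the opposite strand.

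Some of these calls were lost in fits that left out 1 sample. Such fits have fewer samples, and they called 26.9% to 29.4% of all tested genes, against 35.9% with all samples. DNAJC18 lost its call without si-NC replicate 1, si-METTL16 replicate 1 or si-METTL16 replicate 3 (log2 -0.43, -0.46 and -0.45, edgeR adjusted p from 0.0559 to 0.0587). DNAJC11 lost it without si-NC replicate 3, si-METTL16 replicate 1 or si-METTL16 replicate 2 (log2 -0.24, -0.26 and -0.25, edgeR adjusted p from 0.0557 to 0.0675). DNAJC24 kept it only without si-METTL16 replicate 1, and without each of the other 5 samples its adjusted p lay between 0.0687 and 0.104, at log2 fold changes of -0.28 to -0.41. Of the 17 class C members that did not pass, DNAJC21 passed without si-NC replicate 3 (log2 0.59, edgeR adjusted p = 0.00985) and DNAJC15 without si-METTL16 replicate 2 (log2 -0.31, edgeR adjusted p = 0.0392). DNAJC22, at 0.214 FPKM, had the lowest log2 fold change of all members, -0.81, with an SE of 0.43 (edgeR adjusted p = 0.18).

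Of the 6 BAG genes, 1 rose and 1 fell (16.7% each, near the 18.4% and 17.5% of all tested genes). BAG3, an inducible cochaperone that links HSP70 to HSPB8 and to autophagy (chr10:119651370-119677819, plus strand), was at 138, 138 and 135 CPM in si-NC and at 101, 101 and 113 CPM in the si-METTL16 samples. The groups did not overlap, and the gene fell to 76.5% of the control (log2 -0.39, SE 0.065, edgeR adjusted p = 0.0040). BAG5 rose from 63.3 ± 8.89 to 82.0 ± 2.67 CPM (SD, n = 3; log2 0.37, edgeR adjusted p = 0.0299). It kept its call only without si-NC replicate 1, and without each of the other 5 samples its log2 fold change was 0.29 to 0.40 and its adjusted p 0.0546 to 0.0911. BAG1, BAG2, BAG4 and BAG6 had log2 fold changes from -0.12 to 0.10 and did not pass.

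The transcription factors did not pass the test. HSF1 was at 36.2, 47.7 and 32.7 CPM in si-NC and at 46.4, 68.5 and 48.2 CPM in the si-METTL16 samples, so that si-NC replicate 2 overlapped with the si-METTL16 samples (log2 0.48, SE 0.19, edgeR adjusted p = 0.093). Without that sample HSF1 passed (log2 0.65, edgeR adjusted p = 0.046), and it also passed by the Wald test of DESeq2 (adjusted p = 0.045). HSF2 was at 39.5, 31.7 and 31.8 CPM in si-NC and at 36.0, 39.4 and 35.9 CPM in the si-METTL16 samples (log2 0.11, SE 0.11, edgeR adjusted p = 0.47). HSF4 had a log2 fold change of -0.49 (edgeR adjusted p = 0.32) at 0.180 FPKM, and HSF5 had 1 count in all.

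A list of 13 genes of the heat shock response held inducible chaperones (HSPA1A, HSPA1B, HSPA6, HSPH1, HSP90AA1, HSPB1, HSPD1, HSPE1, DNAJB1 and BAG3), the constitutive HSPA8 and the factors HSF1 and HSF2. Of these, HSPH1 and HSPD1 rose, BAG3 and HSPB1 fell and the other 9 did not pass. The share called was 30.8% (15.4% in each direction), near the 35.9% of all tested genes (18.4% and 17.5%). The 13 log2 fold changes had a median of 0.26, with 10 above 0 and 3 below. Without HSPA6 the median was 0.21, with 9 above 0, beside a median of -0.0045 over all tested genes. The values of these genes also differed between replicates. In si-METTL16 replicates 1, 2 and 3, 2, 4 and 7 of the 13 genes were at the highest value of their group, and in si-NC replicates 1, 2 and 3 it was 4, 8 and 1. Over all 65 tested members the same counts were 24, 22 and 19 in the si-METTL16 replicates and 21, 25 and 19 in the si-NC replicates. The part of these sample differences in the results was not tested.

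**Figure D3:**
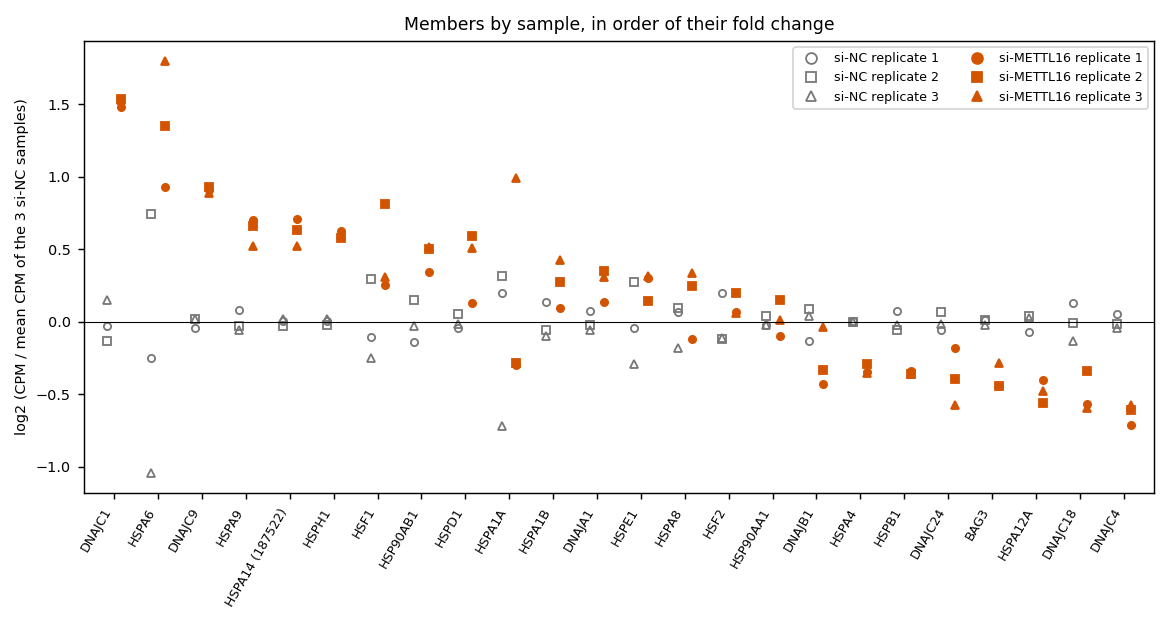
Value of each sample for 24 members (y axis, log2 of CPM over the mean of the 3 si-NC samples), ordered by fold change, with open grey symbols for si-NC and filled orange ones for si-METTL16. HSPH1, HSPA4 and DNAJC9 show tight and separate groups, whereas for HSPA1A si-METTL16 replicate 3 stands alone at 134 CPM, above all other samples.

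The deposited FPKM values spanned a wide range. Their order between genes also depends on the length assigned to each gene, which was not examined. In si-NC replicate 1, the near copies HSPA1A and HSPA1B had 1303 and 1352 counts but 17.6 and 31.9 FPKM. HSPA8 had 20489 counts in that sample and DNAJA1 had 11067, against 86.3 and 216 FPKM. After HSP90AB1 (590 FPKM on average over the 6 samples) came DNAJA1 with 225, HSPD1 with 130, HSP90AA1 with 107, HSPA4 with 96.5, HSPA8 with 87.1, HSPE1 with 57.9, HSPB1 with 50.2 and HSPA9 with 49.0 FPKM. Neighbours in this order were not all separate: HSP90AA1 and HSPA4 were at 107 ± 2.56 and 108 ± 0.309 FPKM in si-NC but at 108 ± 9.42 and 84.8 ± 2.09 FPKM in the si-METTL16 samples. HSPE1 (53.2 ± 10.6 FPKM) and HSPB1 (56.7 ± 2.69 FPKM) did not differ beyond their spread in si-NC. The median of the tested members was 6.34 FPKM, 26 were at 10 FPKM or more, and 6 were under 1 FPKM. The 12 members too low to test had at most 18 counts in any sample, and 5 of them had none: DNAJB7, DNAJB8, HSPB2, HSPB3 and HSPB9. The other 7 were DNAJA4, DNAJB13, HSF5, HSPA12B, HSPB2-C11orf52, HSPB6 and HSPB7. At these depths 3 counts, the upper limit that a count of 0 allows, correspond to 0.166 to 0.191 CPM, for counting error only.

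**Figure D4:**
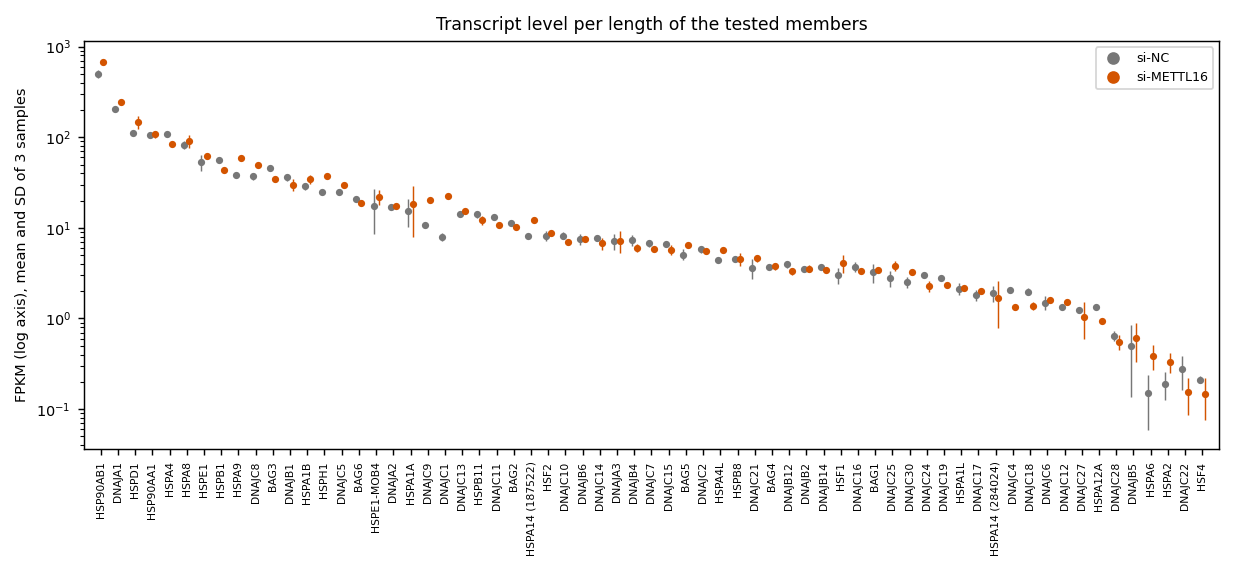
Mean FPKM of each tested member in si-NC (grey) and si-METTL16 (orange) samples on a log axis, with SD of 3 samples, ordered by the mean over all 6. HSP90AB1 leads with 501 FPKM in si-NC and 678 in the si-METTL16 samples, and the order ends with HSF4 at 0.180 FPKM on average.

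Members were then set beside the heat shock elements printed at the start. Of the 7 with the long element, HSP90AB1, HSPD1 and DNAJA1 rose, and HSP90AA1, HSPA8, HSPA6 and DNAJB6 did not pass. The calls of HSPD1 and DNAJA1 were lost in most fits that left out 1 sample, as given above. In DNAJA1 the match lies after the start, and HSP90AB1 and HSP90AA1 also had windows without the long element. HSPA6 entered the test only through the si-METTL16 samples, and the log2 fold changes of the other 6 ran from 0.03 to 0.46, with a median of 0.22. Of the 18 tested members other than HSPA6 with at least the short element, 5 rose, 1 fell and 12 did not pass, with a median of 0.08. Of the 38 with a window but no match, 5 rose and 6 fell, with a median of 0.03; HSPH1, HSPA4, BAG3 and DNAJC9 were among them. These counts are descriptions of letters in a fixed window, beside the 18.4% and 17.5% of all tested genes that rose and fell.

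The partners of these chaperones were counted from lists written for the pathway. Of 15 cochaperones of HSP90 and HSP70, 7 rose and 3 fell. AHSA1, which activates the HSP90 ATPase, rose from 109 ± 6.50 to 187 ± 5.20 CPM (log2 0.78, edgeR adjusted p = 2.47e-04), and FKBP4, UNC45A, FKBP5, TTC4, STIP1 and SUGT1 also rose. PTGES3, the p23 protein that stabilises closed HSP90, fell from 496 ± 7.02 to 295 ± 67.4 CPM (log2 -0.75, edgeR adjusted p = 0.0068), as did ST13 and HSPBP1. The 10 of 15 called stand beside 35.9% of all tested genes, and the median was 0.18. SUGT1 and HSPBP1 lay close to the threshold (edgeR adjusted p = 0.041 for each). Fits that left out 1 sample are not given for any of these partner lists.

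Of the 8 subunits of TRiC, the cytosolic chaperonin, CCT2, CCT3 and CCT7 rose, and all 8 log2 fold changes were above 0 (0.03 to 0.36, median 0.22). Of all tested genes, 18.4% rose and 17.5% fell, and 7475 of 15089 had a value above 0. The 3 called subunits were 37.5% of TRiC, near the 35.9% of all tested genes. In prefoldin, which hands clients to TRiC, PFDN2 and VBP1 rose, PFDN4 fell and 3 did not pass (50% called). Of 9 mitochondrial partners, GRPEL2, CLPB and LONP1 rose and CLPX and HSCB fell (55.6% called). CCT7, PFDN4 and LONP1 also lay close to the threshold (edgeR adjusted p = 0.034, 0.038 and 0.040). GRPEL1, the main exchange factor of HSPA9, had a log2 fold change of 0.10 (edgeR adjusted p = 0.47) and TRAP1, the mitochondrial HSP90, one of -0.17 (edgeR adjusted p = 0.12). CRYAA and CRYAB were too low to test. Of the 6 ER chaperones set aside by the rule, DNAJB11 rose (log2 0.25, edgeR adjusted p = 0.017). HSPA5 (0.01), HSP90B1 (-0.19), HSPA13 (0.07), DNAJB9 (0.18) and DNAJC3 (0.17) did not pass on that log2 scale.

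**Figure D5:**
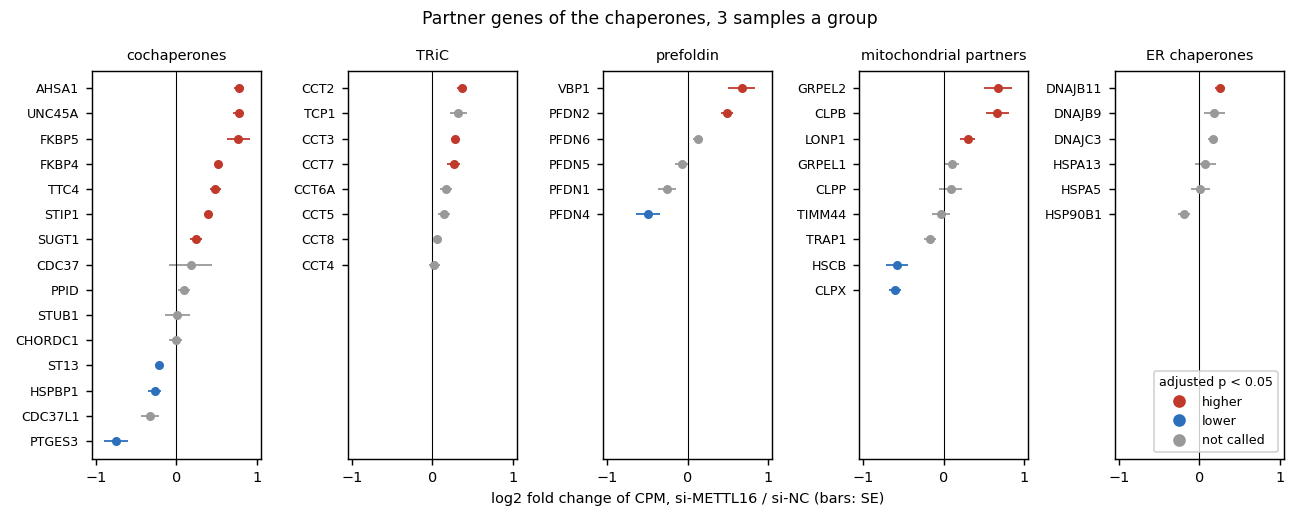
Log2 fold change (x axis, si-METTL16 against si-NC, 3 samples a group, bars are standard errors) of cochaperones, TRiC, prefoldin, mitochondrial partners and the 6 ER chaperones, coloured by the edgeR call. AHSA1 is highest at 0.78 and PTGES3 lowest at -0.75.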

How the data were processed

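Gene counts and FPKM values of 6 PANC-1 samples were used. The authors deposited raw counts per gene and FPKM values, which scale by a length assigned to each gene and by total count. These lengths were not examined, so an order of FPKM between genes is that of the deposited values only. The submitters' processing notes name HISAT2 2.0.4, StringTie 1.3.0 and GRCh38, whereas the annotation release and strand setting are not given in the sources used here. Overlapping and near-identical genes are therefore uncertain: 28 members overlap a coding gene on the opposite strand. GENCODE v44 gives identical positions for 24 members and was used for biotypes, pseudogenes and exon overlap. Gene coordinates are those of the deposited table, and promoter coordinates are those of RefSeq.

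In R 4.3.3, counts were filtered with filterByExpr (minimum count 10), scaled by TMM and fitted by the quasi-likelihood functions of edgeR 4.0.16 (glmQLFit, glmQLFTest). Over 15089 genes, p values were adjusted by Benjamini-Hochberg and called under 0.05. The methods of the study name limma; because the deposited values are raw counts, a count test came first and limma 3.58.1 second. Standard errors are the absolute log2 fold change over the root of F. Scripts were tested on simulated counts. Precision was limited by 3 samples per group and, for low genes, by depth.

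Values in every sample were given for the 6 highest and 6 lowest called members with separate groups, the 8 with the highest mean FPKM, 13 genes of the heat shock response and METTL16; HSPA9's place among levels, the ratios, DNAJB5 and the motif groups were chosen after values were seen. The members and lists were chosen with earlier results of these data known. Alternatives were the replicate block, each sample left out, 2 other filters, scaling and the Wald test from DESeq2 1.42.0, and limma with voom or with log2(FPKM + 1) and log2(FPKM + 0.1), summed pseudogenes and copies, and an adjusted p of 0.01. Python 3.11.15 was used for tables and figures. Protein sequences were not analysed here.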

Additional observations from a re-analysis of the deposited data

Results flagged for a closer look

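Of the 76 pseudogene entries set aside from the members, 13 had enough counts to test, although they enter no comparison of members. In si-METTL16 samples 2 of them rose, or 15.4%, near the 18.4% of all tested genes. HSPD1P1 had 637, 671 and 620 counts in si-NC and 746, 914 and 911 counts in si-METTL16 samples, with a log2 fold change of 0.46 (SE 0.11, edgeR adjusted p = 0.016). HSPA9P1 had 100, 128 and 121 counts in si-NC and 169, 182 and 177 counts in si-METTL16 samples, with a log2 fold change of 0.64 (SE 0.14, edgeR adjusted p = 0.012). Their parent genes HSPD1 and HSPA9 had log2 fold changes of 0.42 and 0.63. Pseudogenes held 4.77% of the counts of HSPD1 and its copies and 1.18% of those of HSPA9 and its copy. With these counts added to the parents, the log2 fold changes were 0.42 and 0.63. Reads of a parent and its copy may not be told apart, and the part of this in the pseudogene values was not tested.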

How the results depend on the processing

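Of the 20 called members, 13 kept their call under every alternative: DNAJC1, DNAJC9, HSPA9, HSPA14 (ENSG00000187522), HSPH1, HSP90AB1, DNAJC8 and HSPA4L, which were higher, and DNAJC4, HSPA12A, BAG3, HSPB1 and HSPA4, which were lower. The other 7 (HSPD1, DNAJA1, BAG5, DNAJC5, DNAJC18, DNAJC24 and DNAJC11) lost it in at least 1 fit that left out a sample. Across these 6 fits, 9 to 12 members were higher and 6 to 8 lower. They called 4159 to 4526 of all tested genes, against 5418 with all samples. The median of the tested members then ranged from 0.0054 to 0.084 on the log2 scale. HSP90AA1 ranged from -0.0427 to 0.0785 and HSPA1A from -0.29 to 0.49, changing sign without si-METTL16 replicates 2 and 3, respectively, and neither passed the test in any fit. At an adjusted p under 0.01, 8 members were higher, 5 were lower and 3035 of all tested genes were called. With no filter on low genes, BAG5 and DNAJC24 missed the threshold. With the replicate block, 15 members were higher and 7 lower, and DNAJA1 (edgeR adjusted p = 0.0509) and DNAJC24 (0.0623) were lost, while DNAJC21, DNAJC25, HSF1 (0.0128) and HSPA2 were gained. The numbers are not stated to pair the samples: the deviations of same-numbered samples had correlations of 0.025, 0.037 and 0.030 across genes, although each sample correlated best with its own number. Other scaling, voom, both FPKM fits and summed copies kept all 20 calls; limma on log2(FPKM + 0.1) added DNAJC19 and the Wald test added HSF1. Low counts limit the precision for HSPA6, HSPA2, HSF4 and DNAJC22.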
